A study of Mus musculus with 20 samples.

Results

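The comparison described here set 5 pancreatic tumours with Trp53 and the Arf locus both floxed (KPAT) against 5 tumours with the Arf locus alone floxed (KAT), over all genes that passed a minimum level. The tumours were chosen by the genotype in the labels, and they make up 10 of the 20 samples of the series. All 10 mice carried a Cre-activated oncogene (KrasLSL-G12D), a tdTomato reporter at both Rosa26 alleles and Ptf1aCreER, a tamoxifen-activated Cre recombinase made in the enzyme-secreting acinar cells of the pancreas. KAT mice were Arf-fl/fl with Trp53 not floxed, and KPAT mice were Trp53fl/fl and Arf-fl/fl. Tamoxifen (5 mg by gavage on 3 days) was given at 8 to 10 weeks of age, and mice were then kept until they became ill, so age at collection is not fixed. RNA came from the bulk tumour, in which stromal, vascular and immune cells did not carry active Cre unless they came from acinar cells. Fewer cells of a type and less RNA per cell cannot be told apart in such samples. Tumours with only Trp53 floxed (KPT, 5 samples) entered the model to estimate the spread and are quoted where they help to read a gene. The 5 KT samples are not analysed here.

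The p53 protein, encoded by Trp53, is a transcription factor that halts the cell cycle or triggers cell death after damage or oncogene activity. Arf, one of the products of the Cdkn2a locus, keeps p53 from being degraded by binding the ubiquitin ligase Mdm2, and it also has functions that do not need p53. The comparison therefore asks what a floxed Trp53 adds in tumours in which this upstream brake on Mdm2 is already targeted.

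Reads assigned to genes numbered 16704627 to 22124495 per KAT library and 14696138 to 26248484 per KPAT library. Expression values below are deposited normalized read counts, which are whole reads divided by one factor per library. Fold changes are KPAT minus KAT on the scale log2(value on the scale of reads + 1), given with their standard error (SE), and adjusted p-values come from limma with Benjamini-Hochberg correction over 16648 genes. A gene is said to have risen or fallen only where this adjusted p was at most 0.05. The tumours expressed ductal markers in both groups: the keratin gene Krt19 was at 1124 ± 236 (SD, n = 5) in KAT and 1317 ± 333 (SD, n = 5) in KPAT. Libraries were heterogeneous within groups. KAT 2 had the highest values of the mitochondrial ribosomal RNA mt-Rnr2 (1948, against 118 to 585 in the other 9) and of the predicted gene Gm26917 (1513, against 95.5 to 552), and KAT 1 had the highest acinar, intestine and hypoxia marker levels. KPAT 5 was next to KAT 2 for both RNAs, at 585 and 552. Of the 10 tumours KPAT 5 had the lowest mean levels of macrophage, neutrophil, T and NK cell and B and plasma cell genes. Its cell cycle level was the highest. Over genes, KAT 2 had a Spearman correlation of 0.973 with KPAT 4 and of at most 0.961 with another KAT library. The numbers in the library names form separate ranges for KAT and KPAT, and any batch along them cannot be told apart from the floxed Trp53.

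Few genes separated the 2 genotypes beyond the spread between tumours. Of 16648 genes, 8 passed the test (0.0481%), with 6 higher (0.036%) and 2 lower (0.012%) in KPAT. Of the higher genes, 4 were processed pseudogenes, Gm9855, Gm13092, Gm15920 and Gm8730, which are near-identical copies of protein-coding genes. The protein-coding genes were Shbg and Hal, which rose, and Trp53 and Tdg, which fell. An unadjusted p below 0.05 was reached by 1798 genes (10.8%), with 797 higher (4.79%) and 1001 lower (6.01%), and the tumours of the groups did not overlap for 452 genes (2.72%), 236 of them higher (1.42%) and 216 lower (1.3%) in KPAT. The median log2 fold change over all genes was -0.0026, and 49.6% of genes lay above 0.

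The count of calls depended on 1 library and on the statistical tool. Without KAT 2, 36 genes were called (0.216%), 27 of them lower (0.162%). edgeR's quasi-likelihood test called 7 genes (0.042%) and DESeq2 called 284 (1.72%), of which 98 were higher (0.594%) and 186 lower (1.13%). Array weights in limma, which gave KAT 4 a weight of 4.29 and KAT 5 a weight of 2.6, raised the count to 515.

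**Figure D1:**
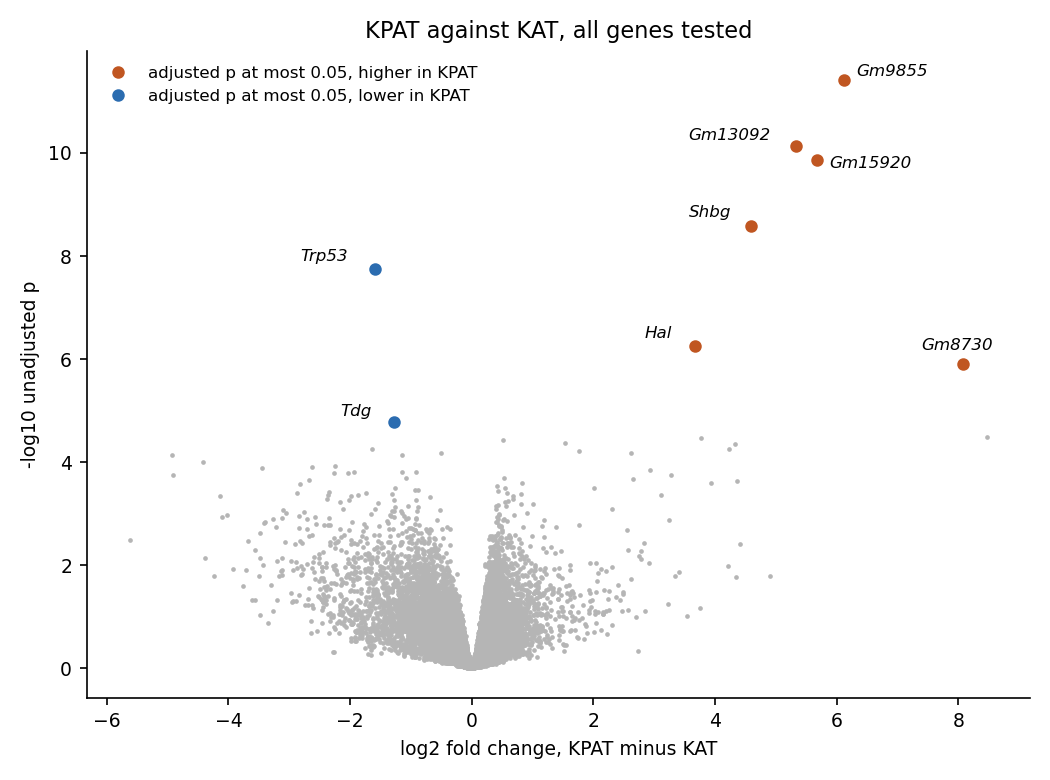
Log2 fold change of KPAT minus KAT (x axis) against -log10 of the unadjusted limma p (y axis) for the 16648 genes tested, one point per gene. The 6 genes that rose are orange, the 2 that fell are blue, and 4 of the 6 orange points are processed pseudogenes.

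Trp53 checks the labels, since it was floxed in KPAT and not in KAT. Trp53 (ENSMUSG00000059552, chromosome 11, 69580359 to 69591873, GRCm38) was at 127, 111, 99.0, 138 and 148 in KAT 1 to 5 and at 57.2, 44.7, 32.9, 36.6 and 38.3 in KPAT 1 to 5. The lowest KAT tumour lay above the highest KPAT tumour. Trp53 fell in KPAT (log2 fold change -1.58, SE 0.15, adjusted p = 6.05e-05). The same gene in KPT tumours, which also carried floxed Trp53, ranged from 22.7 to 26.3. Which exons were floxed is not in the labels, and how much of the remaining signal came from other exons or from cells without active Cre was not tested.

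Cdkn2a, the locus that encodes Arf and the cyclin-dependent kinase inhibitor p16INK4a, was floxed at Arf in both groups. It was at 611, 690, 516, 150 and 161 in KAT 1 to 5 and at 268, 365, 713, 854 and 907 in KPAT 1 to 5. The groups overlapped over most of their range, and Cdkn2a did not pass (log2 fold change 0.67, SE 0.45, 95% interval -0.28 to 1.62, adjusted p = 0.608). A gene-level count does not separate the Arf product from the other product of the locus.

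Shbg (ENSMUSG00000005202, chromosome 11, 69614804 to 69617905), which encodes the sex hormone-binding globulin, starts 34.5 kb from the start of Trp53 in the annotation and lies on the opposite strand. It was at 0 in all 5 KAT tumours and at 0.707, 1.11, 1.85, 1.14 and 1.40 in KPAT 1 to 5. Every KPAT tumour was therefore above every KAT tumour, although the level was low. The KPAT tumours held 118 Shbg reads in all and the KAT tumours none, so that expression was at least 40.7-fold higher in KPAT against a floor of 3 reads over the KAT group (adjusted p = 1.07e-05). KPT tumours were at 1.10 to 3.48. Of the 12 genes tested in the list of Trp53 neighbours Shbg was the one called, and 3 of the 12 had an unadjusted p below 0.05 and were higher (against 4.79% of all genes). The other 2 were the translation factor Eif4a1, at 565 ± 42.2 in KAT and 682 ± 90.5 in KPAT, and Sat2, at 4.88 ± 1.82 in KAT and 8.72 ± 3.94 in KPAT (SD, n = 5). Within 1 Mb of the start of Trp53, 85 other genes were tested, and 2 of them (2.35%) did not overlap between the groups, against 2.72% of all genes.

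**Figure D2:**
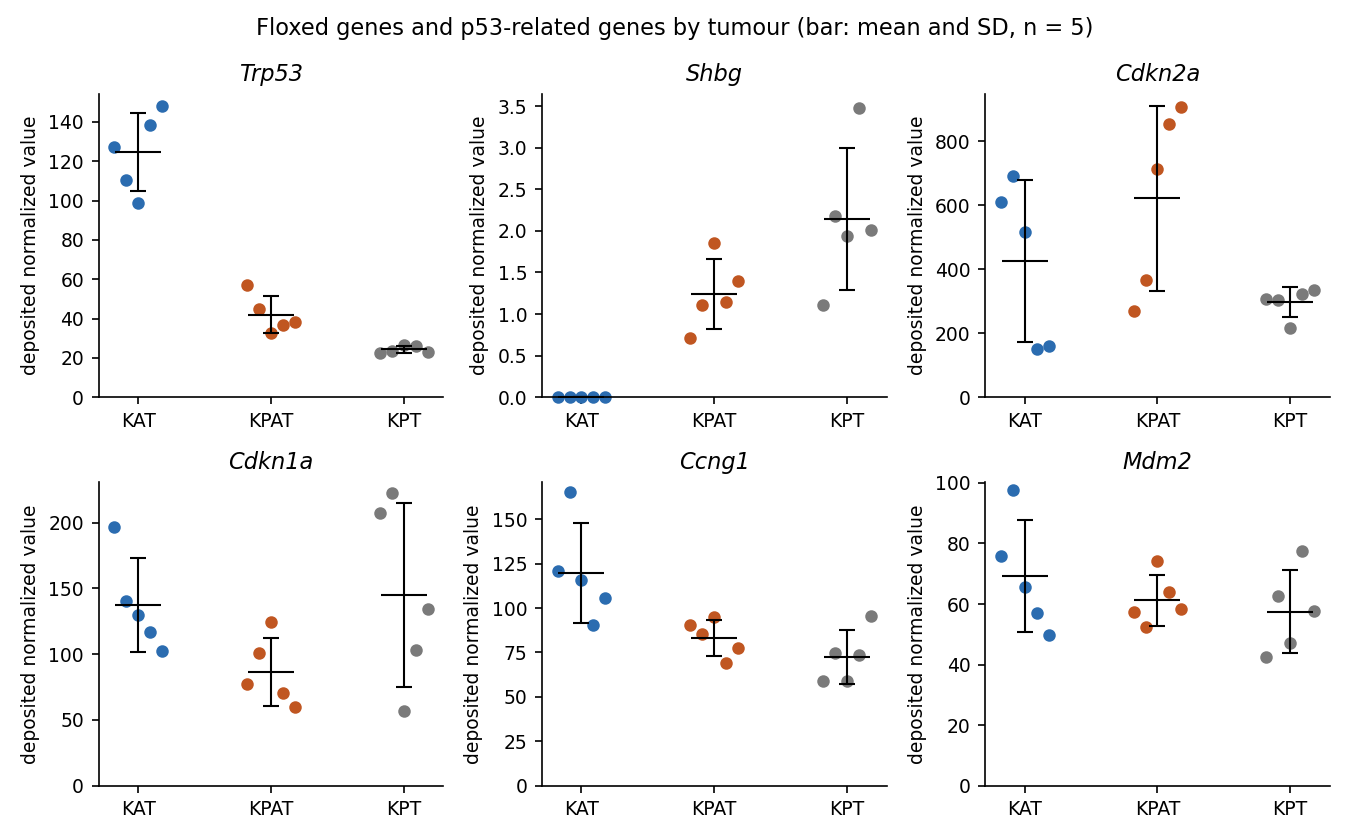
Deposited normalized value (y axis) of 6 genes in each tumour of KAT, KPAT and KPT (points), with the mean and SD of each group (bars, n = 5). Trp53 separates KAT from both Trp53-floxed groups and Shbg is at 0 in the 5 KAT tumours, while Cdkn2a, Cdkn1a, Ccng1 and Mdm2 overlap between KAT and KPAT.

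Of the 8 calls, 4 were processed pseudogenes and Tdg was the parent of one of them. Processed pseudogenes are intronless copies of a messenger RNA inserted elsewhere in the genome, and a read that fits both places equally well can be given to either. For each called copy, a coding stretch is shown with its parent because the few bases in capitals, where the 2 annotated sequences differ, are what places a read at one or the other (GENCODE transcripts, GRCm38, 5′ to 3′). Each stretch was chosen as the window of 60 bases with the most differences, so it is not typical of the whole sequence.
Tdg: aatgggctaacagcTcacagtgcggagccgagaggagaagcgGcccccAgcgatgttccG
Gm9855: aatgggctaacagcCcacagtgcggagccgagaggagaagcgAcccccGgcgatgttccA
Snrpf: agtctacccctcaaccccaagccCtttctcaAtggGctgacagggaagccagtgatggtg
Gm13092: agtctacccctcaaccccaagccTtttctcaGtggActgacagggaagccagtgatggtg
Ndufa12: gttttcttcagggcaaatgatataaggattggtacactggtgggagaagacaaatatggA
Gm15920: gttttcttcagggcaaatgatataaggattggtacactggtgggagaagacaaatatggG
Rplp0: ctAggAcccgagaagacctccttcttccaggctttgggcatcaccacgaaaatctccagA
Gm8730: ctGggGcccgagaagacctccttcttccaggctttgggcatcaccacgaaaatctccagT
Over the aligned coding sequence the identity was 99.24% for Tdg and Gm9855, 98.82% for Snrpf and Gm13092, 99.5% for Ndufa12 and Gm15920 and 98.74% for Rplp0 and Gm8730.

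Tdg (ENSMUSG00000034674, chromosome 10, 82629828 to 82650799) encodes thymine DNA glycosylase, a repair enzyme that also takes part in active DNA demethylation. It was at 46.1, 53.9, 57.2, 65.2 and 59.0 in KAT 1 to 5 and at 16.6, 33.5, 19.1, 35.6 and 17.2 in KPAT 1 to 5. Tdg fell (log2 fold change -1.28, SE 0.21, adjusted p = 0.0349), a call that was lost in 14 alternatives, among them edgeR (adjusted p = 0.0585) and the replicate block (adjusted p = 0.0715). The KPAT tumours lay in 2 separate ranges, with replicates 2 and 4 above the other 3. Its copy Gm9855 (chromosome 10, 42054113 to 42055306) was at 0.0549 to 0.261 in KAT and at 17.2, 8.23, 14.3, 8.05 and 17.2 in KPAT 1 to 5. Gm9855 rose (log2 fold change 6.12, SE 0.32, adjusted p = 6.43e-08). Its 2 lower KPAT tumours were the 2 in which Tdg was higher. The copy made up 50.9%, 19.7%, 42.8%, 18.5% and 50.1% of the summed value in KPAT 1 to 5 and at most 0.455% in KAT. Summed over both, the value was 56.4 ± 7.03 in KAT and 37.4 ± 4.91 in KPAT (SD, n = 5), and the sum did not pass (log2 fold change -0.59, SE 0.12, adjusted p = 0.157).

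The Rplp0 family showed a larger division of reads. Rplp0 (chromosome 5, 115559467 to 115563727), a protein of the large ribosomal subunit, was at 1761, 1813, 1826, 1596 and 1351 in KAT 1 to 5 and at 793, 714, 716, 766 and 762 in KPAT 1 to 5. These groups did not overlap, yet Rplp0 missed the threshold (log2 fold change -1.15, SE 0.21, adjusted p = 0.0602) in the fit that takes its spread from KPT as well. With only KAT and KPAT fitted, Rplp0 passed (limma, adjusted p = 0.002), as it did with DESeq2 (adjusted p = 2.3e-05). Gm8730 (chromosome 8, 102864845 to 102865798) was at 2.25 to 4.17 in KAT and at 1010, 859, 871, 1021 and 890 in KPAT 1 to 5, and it rose (log2 fold change 8.08, SE 1.05, adjusted p = 0.00301). A further copy, Gm9625, was at 0.261 to 0.659 in KAT and 162 to 189 in KPAT (adjusted p = 0.0562, and 7.07e-09 with only KAT and KPAT fitted). The copies together held 58.4% to 60.7% of the family's value in every KPAT tumour and at most 0.272% in KAT. Summed over Rplp0 and 4 copies, the value was 1673 ± 201 in KAT and 1857 ± 113 in KPAT (SD, n = 5), with a log2 fold change of 0.16 (SE 0.13, adjusted p = 0.693). In KPT the share of the Rplp0 copies ran from 0.292% to 59%, so tumours with the same floxed genes differed in it. The called copies of other parents were above their KAT range in every KPT tumour. Gm9855 was at 18.3 to 27.4 there, Gm13092 at 4.16 to 5.44 and Gm15920 at 8.42 to 13.2, and Tdg was at 17.3 to 22.6.

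The other 2 called copies differed from these in their parents. Gm15920 (chromosome 5, 130188395 to 130188796), a copy of the respiratory complex I gene Ndufa12, was at 0 to 0.11 in KAT and at 8.89, 2.89, 8.77, 4.76 and 5.78 in KPAT 1 to 5 (log2 fold change 5.67, SE 0.37, adjusted p = 7.58e-07). Ndufa12 itself was at 41.4 ± 3.71 in KAT and 36.9 ± 5.04 in KPAT, and the sum of both at 41.5 ± 3.67 and 43.1 ± 6.06 (SD, n = 5). Gm13092 (chromosome 4, 150315177 to 150315436), a copy of the spliceosome gene Snrpf, had 1 read over the KAT group and 234 over KPAT, a ratio of 242 with a counting interval of 43.1 to 9608 (adjusted p = 6.19e-07). Counting intervals here and below come from reads pooled over each group and leave out the spread between tumours. Snrpf itself was listed at under 0.5 in all 10 tumours, which is below the level of its copy in KPAT. Of the 31-base stretches in Snrpf transcripts, 92.06% also occur in transcripts of other genes, and 61.73% occur in Ccdc38. Expression of Snrpf therefore cannot be read from its listed value, and where its reads were assigned was not tested. Replicates 2 and 4 had the smallest share of Gm15920 among KPAT tumours, 7.63% and 9.97% against 16.3% to 19.1%, as they had for Gm9855. Of the 8 calls, Trp53, Shbg and Hal passed also when copies were summed with their parents, a version in which the Snrpf family took the 4th call. Gm13092 made up 83.8% to 98.4% of that family's value in KPAT, so this call repeats the call of the copy.

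**Figure D3:**
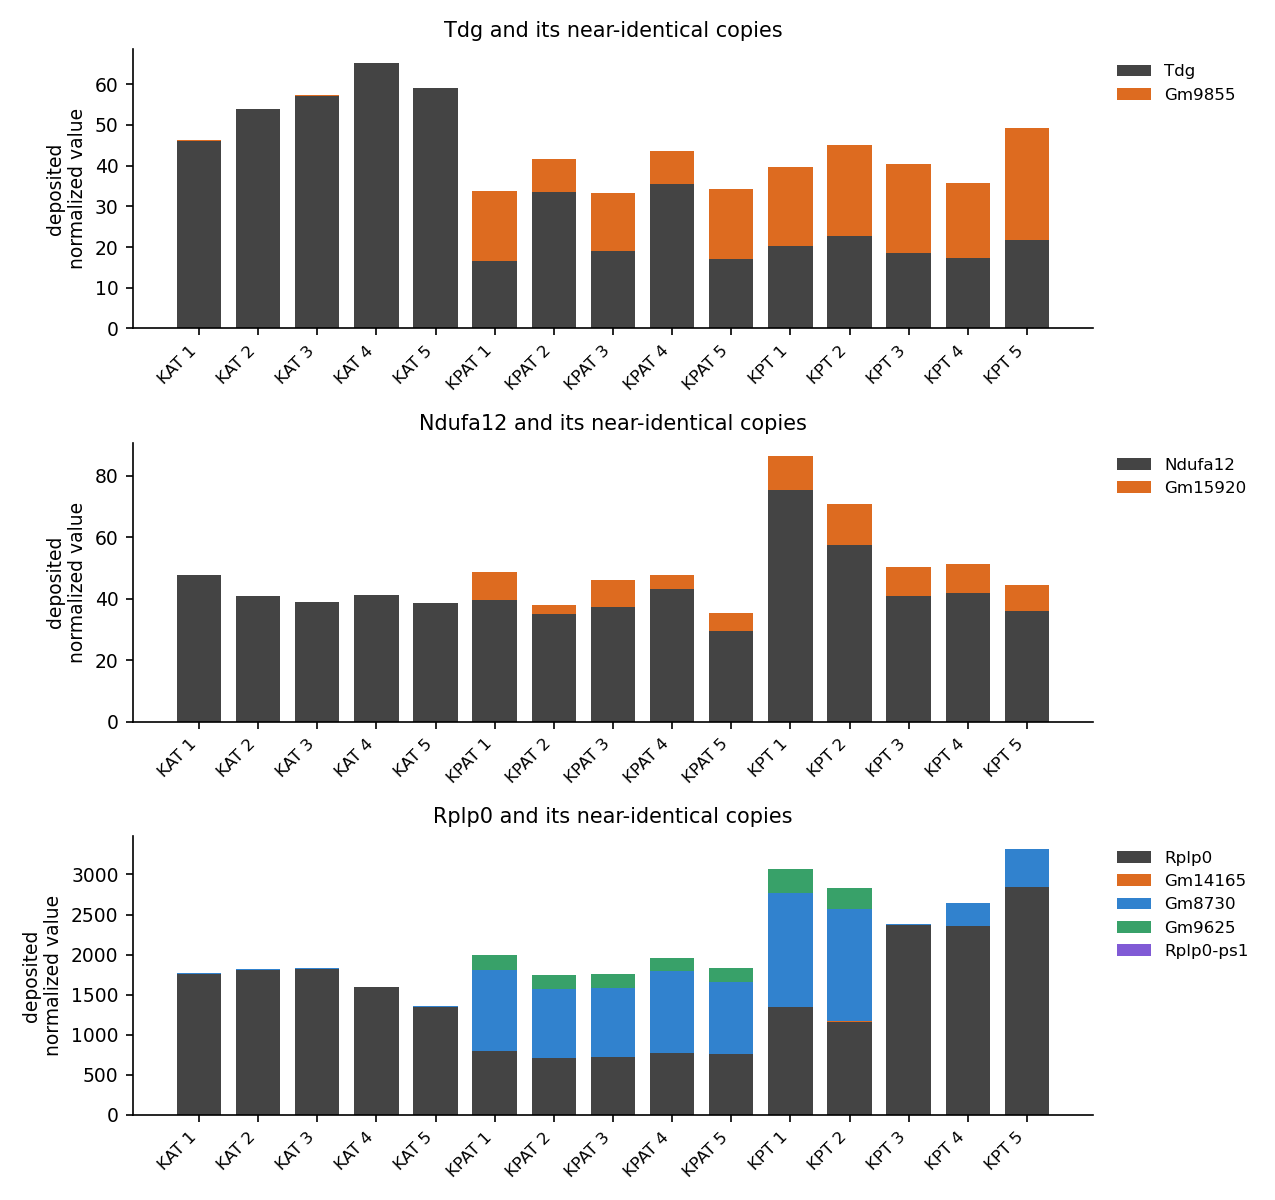
Stacked deposited normalized values (y axis) of Tdg, Ndufa12 and Rplp0 (dark) and their near-identical copies (colours) in each of 15 tumours (x axis). The copies are near 0 in the 5 KAT tumours and hold 58.4% to 60.7% of the Rplp0 family in KPAT; 2 further Rplp0 copies, Gm14165 and Rplp0-ps1, are too low to be seen.

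Hal (ENSMUSG00000020017, chromosome 10, 93488768 to 93519304) encodes histidine ammonia-lyase, the first enzyme of histidine breakdown. It was at 0.422, 2.20, 0.731, 0.696 and 0.659 in KAT 1 to 5 and at 18.03, 11.6, 14.6, 5.57 and 8.39 in KPAT 1 to 5. The lowest KPAT tumour, replicate 4, was above the highest KAT tumour, and Hal rose (log2 fold change 3.67, SE 0.45, adjusted p = 0.00156). In KPT it ranged from 4.80 to 15.6. Hal is annotated on the same stretch of chromosome 10 as the parents Tdg, Snrpf and Ndufa12, which with Hal span 11.6 Mb. The stretch was drawn around these genes. Of 75 genes tested in it, 2 were called (Hal and Tdg), against 0.0481% of all genes. The groups did not overlap for 4 of the 75 (5.33%, against 2.72% of all genes), and the median log2 fold change was -0.016. Hal and Tdg, around which the stretch was drawn, were among these 4, so the choice raised both counts.

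The remaining protein-coding genes with the smallest p did not pass. Stc1, a secreted glycoprotein hormone, was at 12.04, 7.03, 11.7, 11.97 and 6.32 in KAT 1 to 5 and at 34.0, 30.5, 84.0, 75.4 and 100.1 in KPAT 1 to 5 (log2 fold change 2.61, SE 0.48, adjusted p = 0.0602). All 5 KPAT tumours exceeded the highest KAT tumour, an order found in 1.42% of all genes and favoured by a choice on small p. The aldehyde dehydrogenases Aldh1a7 and Aldh3a1 had the same order: Aldh1a7 was at 4.55 to 6.37 in KAT and 8.17 to 28.9 in KPAT (adjusted p = 0.0574), and Aldh3a1 at 0.75 to 1.92 in KAT and 5.37 to 35.0 in KPAT (adjusted p = 0.0907). Gcn1l1, a sensor of stalled ribosomes that lies next to Rplp0 on chromosome 5, was at 126 to 151 in KAT and 166 to 216 in KPAT (log2 fold change 0.51, SE 0.09, adjusted p = 0.0562). Trim58, an erythroid ubiquitin ligase gene, had 3 reads over the KAT group and 162 over KPAT, a ratio of 55.9 with a counting interval of 18.8 to 274 (adjusted p = 0.0562), and Elobl was at 0.392 in KAT 4, 0 in the other 4 KAT tumours and 0.63 to 5.15 in KPAT (adjusted p = 0.0602).

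Among genes on the lower side, leukocyte genes stood beside others. Cd37, a tetraspanin of B cells and other leukocytes, was at 29.99, 11.97, 29.2, 19.4 and 18.1 in KAT 1 to 5 and at 10.7, 5.93, 6.21, 7.78 and 3.95 in KPAT 1 to 5 (log2 fold change -1.64, SE 0.30, adjusted p = 0.0602). Batf3, a transcription factor needed for cross-presenting dendritic cells, was at 1.26 to 6.53 in KAT and 0.365 to 1.31 in KPAT (adjusted p = 0.0882). Khsrp, a splicing and RNA decay factor, was at 145.5 to 169.4 in KAT and 98.7 to 122 in KPAT (log2 fold change -0.50, SE 0.09, adjusted p = 0.0602). Dmtn, which bundles actin, was at 4.83 to 30.9 in KAT and 1.87 to 3.53 in KPAT, and Phyhip at 1.05 to 5.82 in KAT and 0.0545 to 0.852 in KPAT (adjusted p = 0.0882 for both). Of these 5 genes, all but Batf3 were without overlap between the groups, against 1.3% of all genes lower without overlap. They were picked for a small p, which favours this. Exons of Cd37 overlap those of Tead2, exons of Tdg those of Glt8d2 and exons of Csf1r those of Hmgxb3 in the annotation, so without a known strand setting reads there cannot be assigned with certainty.

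Canonical p53 targets were examined as the direct readout of the floxed gene. Of 44 tested, limma called 0, and edgeR and DESeq2 also called 0, against 0.0481% of all genes with limma. Their median log2 fold change was -0.19, against -0.0026 over all genes, and 33 of the 44 were below 0. An unadjusted p below 0.05 was reached by 4 targets, all lower (9.09% of the 44 against 6.01% of all genes lower). The mean log2 level of the 44 was 9.36, 9.45, 9.44, 9.24 and 9.18 in KAT 1 to 5 and lay between 9.10 and 9.16 in KPAT. The groups did not overlap in this mean, although the gap between KAT 5 and KPAT 4 was 0.018.

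Single targets had small differences and wide intervals. Cdkn1a, the cell cycle inhibitor p21, was at 196, 141, 130, 117 and 103 in KAT 1 to 5 and at 77.3, 101, 125, 70.7 and 59.7 in KPAT 1 to 5 (log2 fold change -0.68, 95% interval -1.37 to 0.01, adjusted p = 0.464). The value of KPAT 3 lay inside the KAT range and KPAT 2 just below it. Ccng1, the cyclin G1 gene, was at 121, 166, 116, 90.3 and 106 in KAT 1 to 5 and at 90.3, 85.1, 94.8, 69.3 and 77.6 in KPAT 1 to 5 (log2 fold change -0.50, 95% interval -0.85 to -0.15, adjusted p = 0.317). Mdm2, which degrades p53 and is itself a target, was at 69.2 ± 18.6 in KAT and 61.2 ± 8.35 in KPAT (log2 fold change -0.15, 95% interval -0.55 to 0.25). The death effector Bax was at 42.5 ± 9.44 in KAT and 36.8 ± 3.57 in KPAT (log2 fold change -0.19, 95% interval -0.52 to 0.15). The remaining 3 with an unadjusted p below 0.05 were the repair gene Mgmt (log2 fold change -1.34, SE 0.43), the stress-induced Sesn1 (-0.65, SE 0.24) and the phosphatase gene Ptp4a3 (-0.50, SE 0.22), with adjusted p from 0.2998 to 0.440. In the other direction Gls2, a mitochondrial glutaminase, was at 3.05 to 5.80 in KAT and 7.08 to 10.3 in KPAT, without overlap (log2 fold change 0.72, adjusted p = 0.484).

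**Figure D4:**
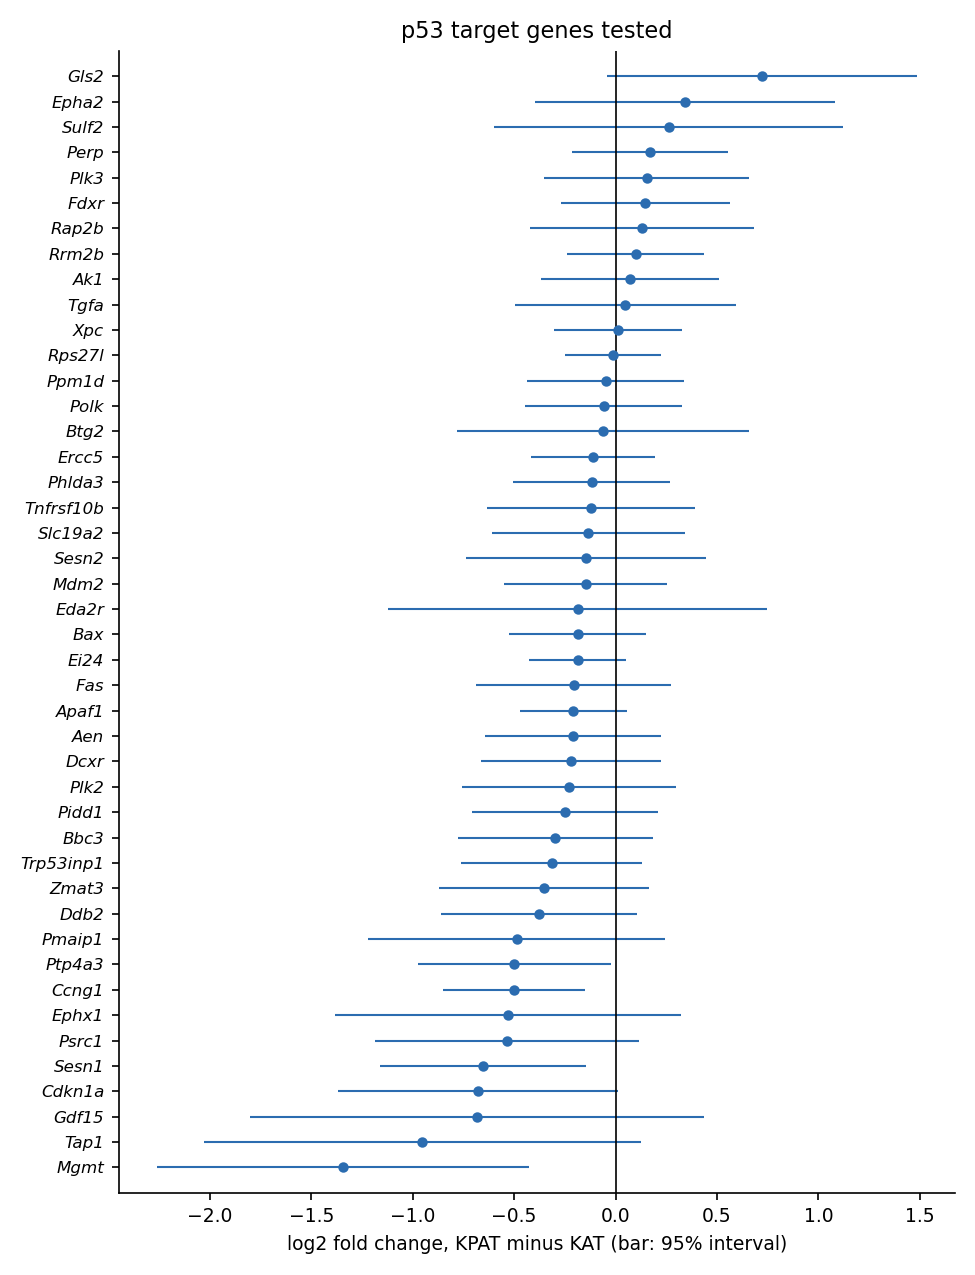
Log2 fold change of KPAT minus KAT with its 95% interval (x axis) for the 44 p53 targets tested (y axis), ordered by value. Of the 44 points, 33 are below 0, and the interval excludes 0 for Mgmt, Sesn1, Ccng1 and Ptp4a3.

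Promoter sequences of the targets were searched for the p53 response element, because p53 acts through this site. The windows ran from 250 bases before to 50 bases after each RefSeq start site (GRCm38.p6), and 34 of the 44 targets had a window. A full site was taken as a pair of p53 half-sites up to 13 bases apart with at most 2 mismatches in all and the core C and G kept, and it reads the same on both strands. Such a pair was in the windows of 5 of the 34 targets (14.7%), against 4.71% of all genes with a window. Among the cell cycle genes described below it was in 5 of 27 (18.5%), so it was not particular to the targets. The 4 shown are those of targets named above, with 20 bases on either side where the window allows and the half-sites in capitals. Where several pairs qualified, the one with the fewest mismatches is in capitals. In Cdkn1a the bases directly after GAACATGTCT also form a qualifying pair with it, and they are in small letters.
Cdkn1a: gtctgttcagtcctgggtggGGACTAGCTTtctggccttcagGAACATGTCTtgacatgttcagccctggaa
Ccng1: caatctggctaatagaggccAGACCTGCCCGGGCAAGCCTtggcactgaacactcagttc
Bax: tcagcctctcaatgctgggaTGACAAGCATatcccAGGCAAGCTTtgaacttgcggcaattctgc
Sesn1: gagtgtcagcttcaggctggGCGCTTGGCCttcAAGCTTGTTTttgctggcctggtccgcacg
They lie at chr17:29090886-29090957 on the plus strand (Cdkn1a), chr11:40755442-40755501 on the minus strand (Ccng1), chr7:45467070-45467134 on the minus strand (Bax) and chr10:41887233-41887295 on the plus strand (Sesn1). The 5th, Rps27l, a ribosomal protein paralogue, had a log2 fold change of -0.01 (SE 0.11). The 5 genes thus ranged from -0.68 to -0.01 and none was called. A perfect single half-site was in 11 of 34 target windows (32.4%), against 9.55% of all genes with a window. Of the 8 called genes 4 had a window, and none of these held a full site.

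Cell cycle genes lay on the higher side in KPAT without passing the test. Of 33 genes for DNA replication and mitosis limma called 0, edgeR 0 and DESeq2 2 higher (against 0.594% of all genes with DESeq2). All 33 log2 fold changes were above 0 (49.6% of all genes), with a median of 0.68, and 9 reached an unadjusted p below 0.05 (27.3% against 4.79%). Rrm2, the small subunit of ribonucleotide reductase, was at 14.5, 14.8, 11.6, 14.1 and 14.1 in KAT 1 to 5 and at 36.4, 26.8, 18.8, 26.0 and 63.3 in KPAT 1 to 5 (log2 fold change 1.18, SE 0.30, adjusted p = 0.188). It was the member with the largest difference, and its groups did not overlap. The replication helicase gene Mcm4 was at 37.3 ± 5.95 in KAT and 66.4 ± 23.01 in KPAT (log2 fold change 0.78, SE 0.23, adjusted p = 0.266). Averaged over the 33 genes, the groups overlapped between the groups, with mean log2 levels of 8.57, 7.73, 7.22, 8.59 and 8.85 in KAT 1 to 5 and 8.73, 9.17, 8.44, 8.35 and 9.60 in KPAT 1 to 5. Without KAT 2 and KPAT 5 the median was 0.37.

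Genes around the restriction point and DNA repair had smaller differences. Of 18 RB and G1 cyclin genes limma called 0, with 3 higher and 1 lower at an unadjusted p below 0.05 (against 4.79% and 6.01% of all genes). Among them Ccnd3, cyclin D3, was at 78.3 ± 14.1 in KAT and 110 ± 18.3 in KPAT (log2 fold change 0.49, SE 0.14, adjusted p = 0.239), and the kinase Cdk6 at 97.6 ± 11.2 and 134 ± 28.9 (0.44, SE 0.14, adjusted p = 0.2998). Of 14 DNA damage and repair genes, 2 were higher at that level (against 4.79%), among them Brca1, which acts in homologous repair, at 10.1 ± 2.74 in KAT and 16.7 ± 4.68 in KPAT. The promoter windows of cell cycle genes are known to carry the CHR element, here TTTGAA or TTTAAA on either strand, and the CCAAT box. Of the 27 cell cycle genes with a window, 18 (66.7%) held the CHR letters and 23 (85.2%) held CCAAT, against 23.2% and 42% of the tested genes with a window.

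Lymphocyte genes had the lowest medians of all groups described, and KAT 2 stood apart from the other 4 KAT tumours in them. Of 9 T and NK cell genes limma called 0, edgeR 0 and DESeq2 3 lower (against 1.13% of all genes). Their median log2 fold change was -2.33, all 9 were below 0, and 8 reached an unadjusted p below 0.05 (against 6.01% of all genes lower). Genes could pass the minimum level through KAT, where the mean log2 level of these genes was 4.93, against 2.77 in KPAT. The counts below 0 are therefore no separate support. With no minimum, 16 genes were tested and the median was -2.07. With a pseudocount of 8 the median was -1.47. With a minimum mean of 50 only 1 of the genes was still tested, at -1.14. The coreceptor gene Cd4 was at 5.91, 0.988, 7.10, 4.44 and 3.46 in KAT 1 to 5 and at 0.404, 1.07, 1.09, 1.006 and 0.304 in KPAT 1 to 5 (log2 fold change -2.33, SE 0.61, adjusted p = 0.206). Cd8a, which marks cytotoxic T cells, was at 3.14, 0.11, 3.39, 0.653 and 1.15 in KAT 1 to 5 and at 0 to 0.253 in KPAT (adjusted p = 0.197). KAT 2 lay inside the KPAT range for both. The T cell receptor component Cd3e and the granule protein gene Nkg7 were below the minimum level and not tested, at 0.22 to 2.04 and 0.0549 to 1.41 in KAT and at 0 to 0.134 and 0 to 0.152 in KPAT.

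B cell genes repeated this order. Of 10 B and plasma cell genes limma called 0, edgeR 0 and DESeq2 5 lower (against 1.13% of all genes), with a median of -2.2, all 10 below 0 and 5 lower at an unadjusted p below 0.05 (against 6.01%). Ms4a1, which encodes the B cell antigen CD20, was at 9.94, 0.11, 4.07, 3.87 and 3.46 in KAT 1 to 5 and at 0 to 0.268 in KPAT (log2 fold change -4.14, SE 0.93, adjusted p = 0.128). The immunoglobulin heavy chain gene Ighm was at 54.2, 9.66, 546, 987 and 171 in KAT 1 to 5 and at 15.2, 7.45, 16.3, 12.8 and 1.28 in KPAT 1 to 5 (log2 fold change -4.11, SE 1.03, adjusted p = 0.185). In both genes the 4 KAT tumours other than KAT 2 were above every KPAT tumour. Without KAT 2, limma called 5 of the 10 lower (against 0.162% of all genes lower). Among them were Ms4a1 (log2 fold change -5.12, adjusted p = 0.00315) and Ighm (-5.06, adjusted p = 0.0251). KAT 2 was the lowest KAT tumour for this group, so leaving it out favours lower calls in these genes and adds no separate support. In the same fit 0 T and NK cell genes and 0 MHC class II genes were called by limma, and 1 dendritic cell gene was called lower. Of the 28 genes called without KAT 2 and not with all libraries, 25 were lower, and 29 of the 36 calls were shared with edgeR run in the same way. The part of the RNA quality of KAT 2 in these values was not tested.

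**Figure D5:**
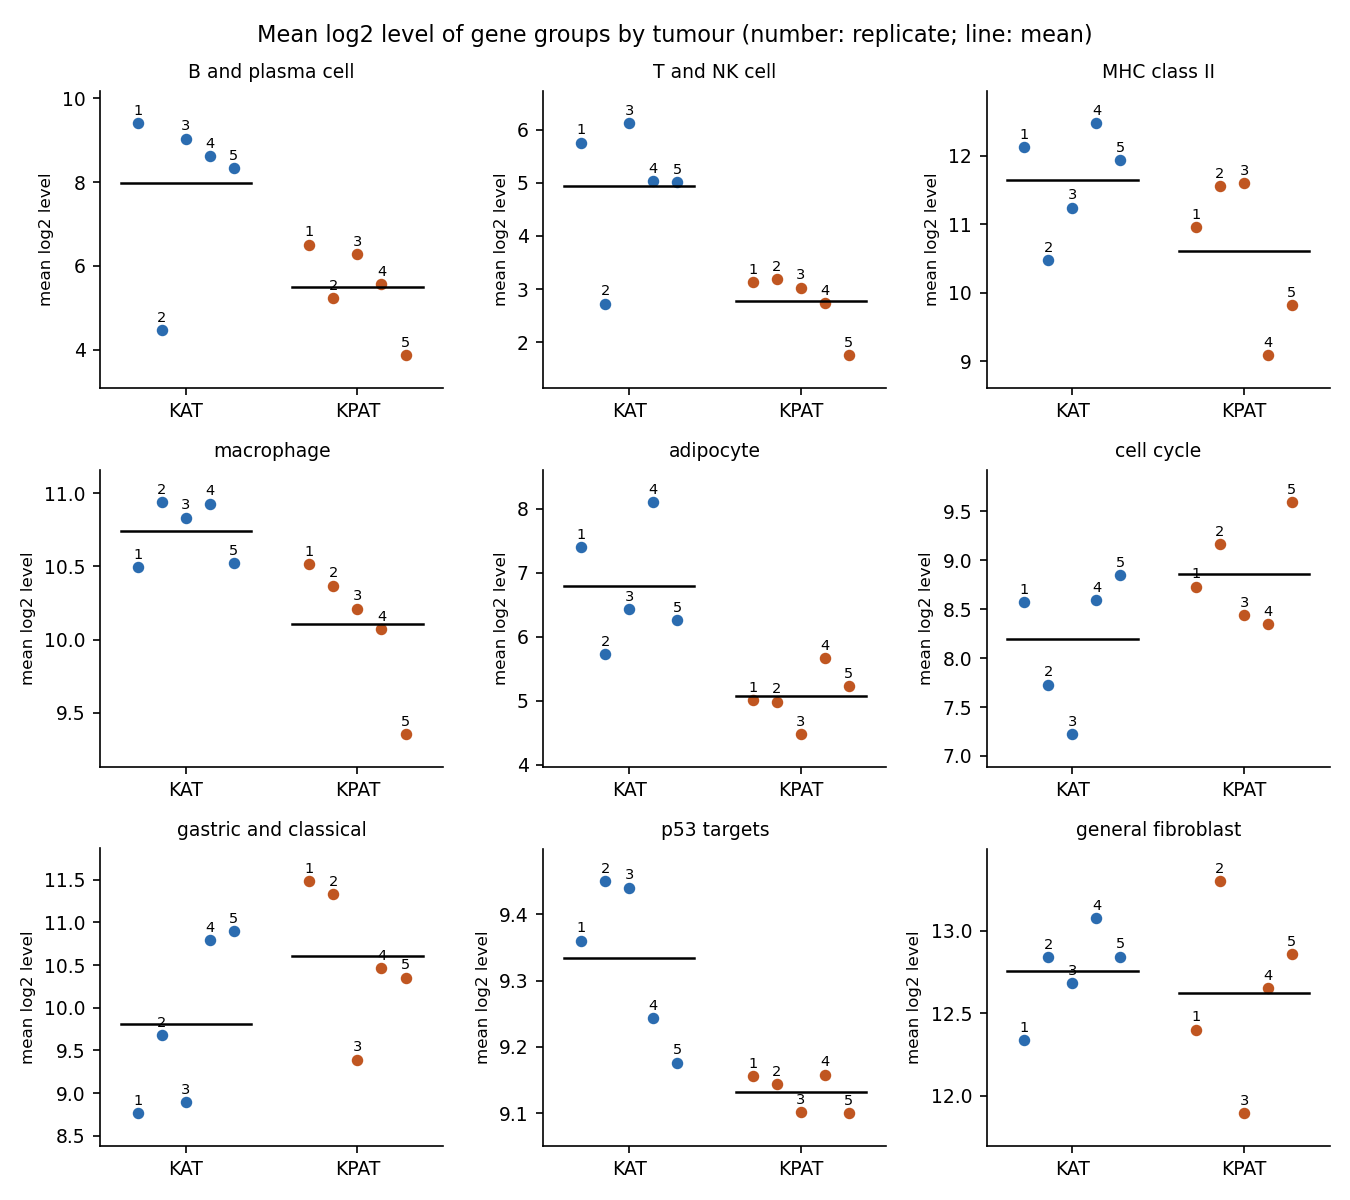
Mean log2 level (y axis) of 9 gene groups in each KAT and KPAT tumour (points numbered by replicate; line, mean of 5). KAT 2 is the lowest KAT tumour for B and plasma cell and T and NK cell genes. KAT and KPAT do not overlap for p53 targets or adipocyte genes, and they overlap for general fibroblast genes.

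Myeloid and antigen presentation genes had smaller negative medians. Of 24 macrophage genes limma called 0, edgeR 0 and DESeq2 4 lower (against 1.13% of all genes), with a median of -0.65, 22 below 0 and 10 lower at an unadjusted p below 0.05 (against 6.01%). The complement gene C1qa was at 218, 387, 388, 444 and 275 in KAT 1 to 5 and at 219, 243, 245, 186 and 142 in KPAT 1 to 5 (log2 fold change -0.71, SE 0.20, adjusted p = 0.242). Csf1r, the receptor of macrophage growth factor, was at 206 ± 63.6 in KAT and 112 ± 36.7 in KPAT, and the lipid carrier Apoe at 2618 ± 1029 and 1217 ± 306 (SD, n = 5). KAT 2 was not low for macrophage genes, having the highest mean level of the 10 tumours, 10.94. Of 8 dendritic cell genes limma called 0, edgeR 0 and DESeq2 2 lower (against 1.13%), with a median of -1.06. The chemokine receptor Ccr7 was at 7.87, 0.933, 6.74, 4.40 and 6.59 in KAT 1 to 5 and at 0.426 to 1.91 in KPAT (adjusted p = 0.249). All 8 MHC class II genes and all 10 MHC class I genes were below 0, with medians of -1.1 and -0.64 and 0 called by limma. The peptide loading gene H2-DMa was at 59.1 ± 22 in KAT and 33.9 ± 17.2 in KPAT (adjusted p = 0.353). Neutrophil genes had a median of -0.61 over 16 genes, and type I interferon genes -0.21 over 25, with KPAT 1 at the highest interferon level, 9.01, of the 10 tumours. The interferon median turned to 0.36 with both edgeR and DESeq2. Without KAT 2 and KPAT 5 the macrophage median was -0.40 and the neutrophil median -0.39. With a minimum mean of 50 only 3 dendritic cell genes were still tested, with a median of -0.23.

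Adipocyte genes had a median of -1.71 over 6 genes, all below 0, with 0 called by limma, 0 by edgeR and 2 lower by DESeq2 (against 1.13% of all genes). The median was -0.89 on the deposited scale, where fewer genes were tested. The mean log2 level of the 6 genes was 5.726 to 8.108 in KAT and 4.475 to 5.665 in KPAT, without overlap. The adipokine gene Adipoq had 184 reads over KAT and 3 over KPAT, a ratio of 59.2 with a counting interval of 19.96 to 289.9 (adjusted p = 0.278). That interval leaves out the spread between tumours, which the adjusted p takes in. The lipid carrier gene Fabp4 was at 47.2, 18.8, 29.1, 37.8 and 8.79 in KAT 1 to 5 and at 4.75 to 11.2 in KPAT (adjusted p = 0.287). Stromal groups were closer to 0. The 20 general fibroblast genes had a median of -0.03 with 0 called by limma and 1 lower at an unadjusted p below 0.05, Pdpn, at 43.2 ± 15.4 in KAT and 15.8 ± 12.04 in KPAT. The collagen gene Col1a1 was at 2453 ± 510 in KAT and 2995 ± 1298 in KPAT. Myofibroblastic genes had a median of -0.47 over 16 genes, inflammatory fibroblast genes -0.38 over 18 and endothelial genes -0.38 over 14, with 0 called by limma in each. The endothelial adhesion gene Pecam1 was at 82.2 ± 31.5 in KAT and 56.5 ± 10.2 in KPAT. The inflammatory fibroblast median was -0.70 without KAT 2 and KPAT 5, and the general fibroblast median changed sign under 3 alternatives.

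Epithelial groups differed in direction. Of 20 genes of gastric-type and classical pancreatic cancer cells limma called 0, edgeR 0 and DESeq2 1 higher (against 0.594%), with a median of 0.57 and all 20 above 0 (49.6% of all genes). Tff2, a trefoil peptide of gastric mucus, was at 100.1, 933, 238, 943 and 984 in KAT 1 to 5 and at 2032, 2822, 653, 1208 and 1241 in KPAT 1 to 5 (log2 fold change 1.62, SE 0.57, adjusted p = 0.33). Vsig1, a junction protein of gastric epithelium, was at 10.9, 30.1, 21.0, 45.5 and 45.3 in KAT 1 to 5 and at 85.2, 87.7, 31.9, 80.5 and 91.4 in KPAT 1 to 5 (log2 fold change 1.39, SE 0.37, adjusted p = 0.208). The tumour that overlapped KAT in both genes was KPAT 3. Ductal genes had a median of -0.03 over 20 genes (0.07 without KAT 2 and KPAT 5), and Epcam, an epithelial adhesion gene, was at 863 ± 181 in KAT and 710 ± 140 in KPAT. Acinar genes had a median of -0.92 over 18 genes with widely spread tumours: the trypsinogen gene Prss2 was at 83.0 in KAT 1, 54.6 in KPAT 2 and 31.2 in KPAT 4, and between 0.272 and 6.53 in the other 7. The acinar median was -0.22 with edgeR, -0.25 with DESeq2 and -0.20 with array weights.

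Signalling and stress groups held no gene called by limma. Of 19 Wnt pathway genes limma called 0, edgeR 0 and DESeq2 1 higher and 1 lower (against 0.594% and 1.13% of all genes). At an unadjusted p below 0.05, 1 Wnt gene was higher and 3 were lower (against 4.79% and 6.01%), with a median of -0.33. Axin2, a feedback target of the pathway, was at 29.2, 22.4, 42.8, 27.1 and 35.0 in KAT 1 to 5 and at 14.4, 24.7, 15.9, 17.0 and 13.4 in KPAT 1 to 5 (log2 fold change -0.87, SE 0.23, adjusted p = 0.205). The secreted antagonist Dkk2 was at 25.4, 66.2, 20.4, 62.8 and 49.9 in KAT 1 to 5 and at 68.2, 84.5, 73.8, 115 and 120 in KPAT 1 to 5, without overlap (log2 fold change 1.15, SE 0.30, adjusted p = 0.207). Of 11 unfolded protein response genes limma, edgeR and DESeq2 called 0, with a median of 0.37 and 4 higher at an unadjusted p below 0.05 (against 4.79% of all genes), among them the chaperone Hspa5 at 557 ± 68 in KAT and 813 ± 162 in KPAT and the secreted factor Manf at 67.7 ± 11.5 and 95.8 ± 13.5. Of 12 NRF2 targets, 2 were higher at that level (against 4.79%): the cystine transporter Slc7a11 at 27.7 ± 19.6 in KAT and 67.7 ± 49.1 in KPAT, and Gsta4, a glutathione transferase, at 288 ± 107 and 459 ± 134. Hypoxia and glycolysis genes had a median of 0.07 over 20 genes, and ribosomal protein genes 0.07 over 22, in which Rplp0 was the one member with an unadjusted p below 0.05. The 12 p53 regulators had a median of 0.03, with Bmi1, a repressor of the Cdkn2a locus, at 63.8 ± 7.62 in KAT and 79.6 ± 6.17 in KPAT (log2 fold change 0.33, SE 0.10, adjusted p = 0.287). The 16 genes of senescence-associated secretion had a median of 0.00 with 0 called by limma. The medians of the hypoxia, ribosomal protein, p53 regulator and senescence groups each changed sign under at least 1 alternative.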

How the data were processed

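Bulk tumour RNA (RNeasy midi columns) was sequenced on a HiSeq4000 as TruSeq RNA libraries, per the labels' protocols. The submitters' processing notes name HISAT2 2.0.4 and mm10. Neither the counting tool and its annotation, its handling of strand and of reads that fit several places, nor the normalization is stated there. The authors deposited one signal value per gene for 20636 genes and 15 libraries. These behave as whole reads over a single divisor for each library, since 100% came within 0.01 of a whole number after multiplying back. On these recovered reads edgeR called 7 genes.

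For the main test, the deposited signal was scaled by 19.478 to the size of reads, genes with a mean of at least 10 were kept (16648), and log2(value + 1) was fitted in limma 3.58.1 under R 4.3.3 with one mean per group, a trended prior and the spread of KPT included (15.2 degrees of freedom). Tests were two-sided at 0.05. Alternatives included edgeR 4.0.16 and DESeq2 1.42.0. Symbols were matched for 20574 of 20636 IDs from GENCODE. A processed pseudogene counted as a copy where at least 20% of its 31-mers occurred in the parent. Nothing in the labels ties a sample to a named mouse, so p-values measure the spread between these samples. KAT 4 and KAT 5, the most alike pair (Spearman 0.989), differed by more than sampling noise (chi-square 19.5 per gene).

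The comparison, lists and named genes were chosen with earlier results of these data known. The rule for names took Trp53 and Cdkn2a, then up to 12 called protein-coding genes per direction without overlap and with at least 100 normalized reads in the higher group, then the 8 per direction with the smallest p, then Cdkn1a, Mdm2, Bax and Ccng1. It passed over predicted genes. Other list members, the pseudogenes and their parents were named after their values were seen. Some single genes are not reported here.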

Additional observations from a re-analysis of the deposited data

Results flagged for a closer look

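Single tumours lay far from the other 4 of their group, by Dixon's 95% criterion for 5 samples, in 17 of 204 groups examined, where chance gives about 1 in 20. KAT 2 was the low tumour for 3 lymphoid genes, with Ms4a1 at 0.1098, Cd79a at 0.4941 and Ccr7 at 0.9334. Its mean log2 levels of B and plasma cell genes (4.47) and of dendritic cell genes (5.75) were low in the same way. KAT 1 was the high tumour for Ndufa12 (47.76), for the glycolytic gene Pfkp (182.8), for the mean level of intestine genes (9.47) and for that of hypoxia and glycolysis genes (11.98).

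KAT 3 was low for Rrm2 (11.59). KAT 4 was low for Gls2 (3.047) and Phyhip (1.045), and it was the one KAT tumour with Elobl reads (0.3917). KAT 5 held the 1 Gm13092 read of its group (0.05492). Among KPAT tumours, KPAT 5 was low for Epcam (462.9), KPAT 3 was low for Vsig1 (31.93), and KPAT 2 stood apart in the mean level of inflammatory fibroblast genes (8.68).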

How the results depend on the processing

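As reported, 8 genes passed, 6 higher and 2 lower. The count was 17 (14 higher) after quantile normalization, 4 (2 higher) on the deposited scale, 15 (12 higher) with only KAT and KPAT fitted, 515 (208 higher, 307 lower) with array weights, 284 (98 higher, 186 lower) with DESeq2 and 4 (3 higher, 1 lower) with copies summed. It was 17 (10 lower) without KPT 3, KAT 2 and KPAT 5, 28 (20 lower) without KAT 2 and KPAT 5, and 32 (26 lower) with edgeR without KAT 2. Leaving out 1 library at a time gave 7 to 36 calls, 6 to 9 higher and 1 to 27 lower, with the 36 and 27 without KAT 2. Tdg lost its call in 14 alternatives, among them edgeR, which left 1 lower gene. The Mdm2 log2 fold change was 0.0281 with array weights and 0.0005 without KAT 2 and KPAT 5, with or without KPT 3. Summed with copies, Rplp0 was at 0.157 and Ndufa12 at 0.048, since the copies' reads are added. For the other changes the cause was not tested. The labels do not say whether shared replicate numbers mark pairs of tumours. Same-number correlations ran from -0.21 to 0.06, and 0 of 5 KAT tumours correlated best with their own number. With 5 pairs this cannot exclude a shared litter or day. A fit with the replicate block called 7 genes, 6 higher and 1 lower. Depth limits genes with few reads, such as Shbg. The alternatives with an Xist covariate, with summed copies, without KAT 2 and KPAT 5, and with edgeR without KAT 2 were chosen after seeing the data.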

Other observations

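Genes of cholesterol and fatty acid synthesis had a median log2 fold change of -0.40 over 15 genes, of which 13 lay below 0 and limma called 0. Outputs of RAS and MAPK signalling had a median of 0.22 over 18 genes, of which 15 lay above 0 and limma called 0. At an unadjusted p below 0.05 there were 2 lower genes in the first group and 2 higher in the second, against 6.01% of all genes lower and 4.79% higher.

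A different copy family divided tumours within KPAT. The copies of the ribosomal protein gene Rps3a1 held 0.476%, 0.599%, 20.7%, 0.559% and 0.635% of the family's value in KPAT 1 to 5 and 20.5% to 21.1% in KAT. KPAT 3 was therefore the one KPAT tumour at the KAT share. For Fabp5 and its copy Gm6166 the copy's share was at most 0.377% in KPAT, 0.265% in KAT 1 and 16.7% to 35.2% in the other 4 KAT tumours.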
